A study of Mus musculus with 10 samples.

Results

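Neutrophils carry their antimicrobial proteins in granules, and the genes for those proteins were read here in axillary lymph nodes of mice with and without a breast tumour. The 9 genes, of 32285 counted, are Camp, Ngp, Ltf, Fcnb, Mmp8, Retnlg, Stfa2, Elane and Mpo. They were chosen by name as a reading of granulocyte maturity, not by their values. All 9 are protein-coding and were found in the count table by their Ensembl identifiers.

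Granules are filled while a neutrophil matures in the bone marrow, in a set order. Promyelocytes make the azurophil granule proteins Elane (neutrophil elastase) and Mpo (myeloperoxidase), myelocytes and metamyelocytes make the specific granule proteins Camp (the cathelicidin precursor), Ngp (neutrophilic granule protein) and Ltf (lactoferrin), and later forms make collagenases and gelatinases such as Mmp8. Transcripts of the early proteins are known to be low in the neutrophils that circulate, so the set of transcripts still present in a cell is used as a mark of its age.

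The droplet single-cell library used here was made from myeloid and stromal cells sorted from the axillary nodes of wild-type BALB/C females aged 8 weeks. Mice were untreated (naive) or had been given 4T1 or 67NR breast cancer cells in the fourth mammary fat pad, and the tumour mice were taken 18 days later at a tumour size of 500 mm3. 4T1 and 67NR are transplantable mammary carcinoma lines of the same mouse strain, of which 4T1 is known to spread to distant organs and 67NR is known to stay at the primary site. At least 3 mice were used for each condition per the labels, but the cells of a condition carry 1 hashtag antibody in 1 library and cannot be assigned to mice. Each condition is therefore 1 sum of cells with no replicate, no test between conditions was possible, and every interval given is a 95% interval that covers counting error only and not the spread between mice. Intervals of levels and ratios also leave out the spread between cells, so they are too narrow where few cells hold most of the UMIs.

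The library held 94930947 UMIs (unique molecular identifiers, each a counted RNA molecule) in 7823 barcodes, and 5412 cells passed the filters with 1 hashtag. Of these, 2180 were naive, 1501 were from 4T1 mice and 1731 from 67NR mice. Cells were put in the neutrophil gate when S100a8 and S100a9, the calprotectin genes that neutrophils hold in large amounts, made up at least 1% of their UMIs. That gate held 680 naive cells (31.2% of the naive cells), 292 cells of the 4T1 mice (19.5%) and 808 of the 67NR mice (46.7%), and these shares follow the sort as well as the node. The whole library shared 6 to 62 barcodes with each other library of the series.

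The gate carried the markers of neutrophils. Csf3r, the G-CSF receptor, was found in 96.8% of naive, 92.5% of 4T1 and 96.0% of 67NR gate cells, and Cxcr2, the chemokine receptor of mature neutrophils, in 88.4%, 91.8% and 92.8%. Ly6g, a surface marker of mouse neutrophils, gave fewer cells with a UMI, at 9.41%, 27.7% and 43.4%. Median depth differed between the conditions, with 3704 UMIs per naive gate cell, 7216 per 4T1 cell and 5626.5 per 67NR cell, so shares of cells with a transcript are also given after every cell was thinned to 500 UMIs. The gate itself was not alike in the conditions, since the median share of S100a8 and S100a9 was 4.96%, 7.95% and 15.3%.

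The promoters of 4 of the genes are shown. Of these, Camp, Ngp and Ltf were found largely in the same cells, and Stfa2 overlapped with them only in part. Each runs from 250 bases before to 50 bases after the annotated start, 5′ to 3′ on the gene's strand, from RefSeq on GRCm38.p6, the C57BL/6J reference. Capitals mark matches to TTNNGNAA, the core letters of the C/EBP motif read on both strands. The Camp promoter lies at chr9:109849407-109849706 on the minus strand, that of Ngp at chr9:110419558-110419857 on the plus strand, that of Ltf at chr9:111019042-111019341 on the plus strand and that of Stfa2 at chr16:36408314-36408613 on the minus strand.
Camp: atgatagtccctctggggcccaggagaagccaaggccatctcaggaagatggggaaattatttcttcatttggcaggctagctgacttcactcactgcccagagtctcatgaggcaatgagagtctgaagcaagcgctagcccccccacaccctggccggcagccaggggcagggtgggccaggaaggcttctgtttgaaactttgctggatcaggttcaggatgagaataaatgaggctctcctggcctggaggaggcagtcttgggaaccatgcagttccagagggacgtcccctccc
Ngp: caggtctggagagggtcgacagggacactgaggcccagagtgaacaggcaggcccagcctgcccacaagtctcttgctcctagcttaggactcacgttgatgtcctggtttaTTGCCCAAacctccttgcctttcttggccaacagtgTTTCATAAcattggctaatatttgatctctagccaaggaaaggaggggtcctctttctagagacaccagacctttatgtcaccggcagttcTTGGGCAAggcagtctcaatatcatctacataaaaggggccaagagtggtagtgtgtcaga
Ltf: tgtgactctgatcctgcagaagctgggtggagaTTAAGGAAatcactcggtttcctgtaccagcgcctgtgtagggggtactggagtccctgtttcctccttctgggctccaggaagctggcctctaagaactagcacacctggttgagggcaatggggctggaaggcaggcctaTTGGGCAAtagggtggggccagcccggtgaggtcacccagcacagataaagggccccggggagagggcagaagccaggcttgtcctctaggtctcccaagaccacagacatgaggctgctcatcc
Stfa2: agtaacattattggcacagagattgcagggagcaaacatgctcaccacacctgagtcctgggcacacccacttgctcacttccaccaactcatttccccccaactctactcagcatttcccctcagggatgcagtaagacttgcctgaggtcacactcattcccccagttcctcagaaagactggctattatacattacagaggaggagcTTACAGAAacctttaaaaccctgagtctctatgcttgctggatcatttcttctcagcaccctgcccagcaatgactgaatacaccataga

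C/EBP proteins, among them C/EBP epsilon, are known regulators of granule genes. Ngp held 3 matches, starting 138, 102 and 11 bases before the annotated start, Ltf held 2, Stfa2 held 1 and Camp none. Of the other members, Fcnb and Mmp8 held 2 each, Retnlg 1, and Elane and Mpo none. The letters were common, since 13365 of 32851 RefSeq promoters of that length (40.7%) held at least 1 match, so a match describes the sequence and no more. Cebpe itself gave 54 UMIs in the naive gate, 77 in the 4T1 gate and 118 in the 67NR gate. These are raw counts from gates of 3881569, 3203039 and 6110280 UMIs and do not rank the conditions. In 4T1, 41 of them were in 1 cell, and in 67NR 50 were in 4 cells.

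The 9 genes lie on 5 chromosomes of mm10 (GENCODE M21 models). Camp (chr9:109847379-109849617, minus strand), Ngp (chr9:110419747-110423012, plus strand) and Ltf (chr9:111019271-111042767, plus strand) are on chromosome 9, and so is Mmp8 (chr9:7558456-7568485, plus strand). Retnlg (chr16:48872621-48874496, plus strand) and Stfa2 (chr16:36403992-36408457, minus strand) are on chromosome 16. Elane is at chr10:79886247-79888215 on the plus strand, Mpo at chr11:87793581-87804413 on the plus strand and Fcnb at chr2:28076378-28084885 on the minus strand. Stfa2 is the member whose counts are uncertain, because 42 of the 412 stretches of 60 bases in its transcript ends (10.2%) also occur in Stfa2l1, and no such stretch was shared for the other 8.

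Specific granule transcripts were present in all 3 conditions and were highest in the neutrophil gate of the 67NR mice. Camp stood at 15.7 UMIs per 10000 in the naive gate (6108 UMIs), 10.0 in the 4T1 gate (3210 UMIs) and 34.4 in the 67NR gate (21009 UMIs). Camp was thus lower in the 4T1 sum than in the naive sum, by a log2 ratio of -0.65 (-0.71 to -0.59), and higher in the 67NR sum by 1.13 (1.09 to 1.17). Relative to S100a8 and S100a9 UMIs in place of all UMIs, the 67NR value turned to -0.33, and without the 5% of cells with the most Camp the 4T1 value turned to 2.25. With a hashtag ratio of 10 the 4T1 value was -0.19, and with doublets kept it was -0.15.

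Ngp, a cystatin-like protein of the specific granule, gave 21.6, 30.6 and 66.3 UMIs per 10000 in the naive, 4T1 and 67NR gates. Its log2 ratio was 0.51 (0.46 to 0.55) for 4T1 over naive, which turned to -0.37 on the S100a8 and S100a9 scale, and 1.62 (1.59 to 1.66) for 67NR over naive. Ltf, the iron-binding protein of the same granule, stood at 5.84, 6.74 and 12.8 UMIs per 10000. For Ltf the ratio was 0.21 (0.12 to 0.29) for 4T1 over naive and 1.13 (1.06 to 1.20) for 67NR over naive, and both turned on the S100a8 and S100a9 scale, to -0.67 and -0.33. The 67NR sum was the highest of the conditions for all 3 genes, while the order of naive and 4T1 was not the same for Camp as for Ngp and Ltf.

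Fcnb, the gene of ficolin B, a lectin of immature myeloid cells, was rare, with 16 UMIs in 3 naive cells, 79 in 18 cells of the 4T1 mice and 70 in 4 cells of the 67NR mice. Its log2 ratio was 2.58 (1.79 to 3.46) for 4T1 over naive and 1.47 (0.68 to 2.36) for 67NR over naive. The most in 1 cell was 12 of the 16 naive, 34 of the 79 4T1 and 36 of the 70 67NR UMIs. Both Fcnb ratios thus rest in part on single cells. In the 4T1 gate, 25 of the Fcnb UMIs were in the 11 cells that also held Elane, described below with their monocyte genes.

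Summed over Camp, Ngp, Ltf and Fcnb, specific granule transcripts made up 43.2 UMIs per 10000 in the naive gate, 47.6 in the 4T1 gate and 114 in the 67NR gate. The log2 ratio of that sum was 0.14 (0.11 to 0.17) for 4T1 over naive, 1.40 (1.37 to 1.42) for 67NR over naive and -1.25 (-1.28 to -1.23) for 4T1 over 67NR. On the S100a8 and S100a9 scale the first value turned to -0.74 and the second to -0.06, since calprotectin itself was higher by 0.88 in the 4T1 sum and by 1.46 in the 67NR sum. With the gate at 5% of S100a8 and S100a9 the 4T1 value was -0.33. In the 4T1 gate, 1 cell held 1165 of the 3210 Camp, 3005 of the 9809 Ngp and 780 of the 2158 Ltf UMIs. The most in 1 naive cell was 1275 of 6108, 2251 of 8369 and 377 of 2267. The 4T1 over naive values of these genes and of the sum thus rest in part on single cells. They were not recomputed without these single cells.

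**Figure D1:**
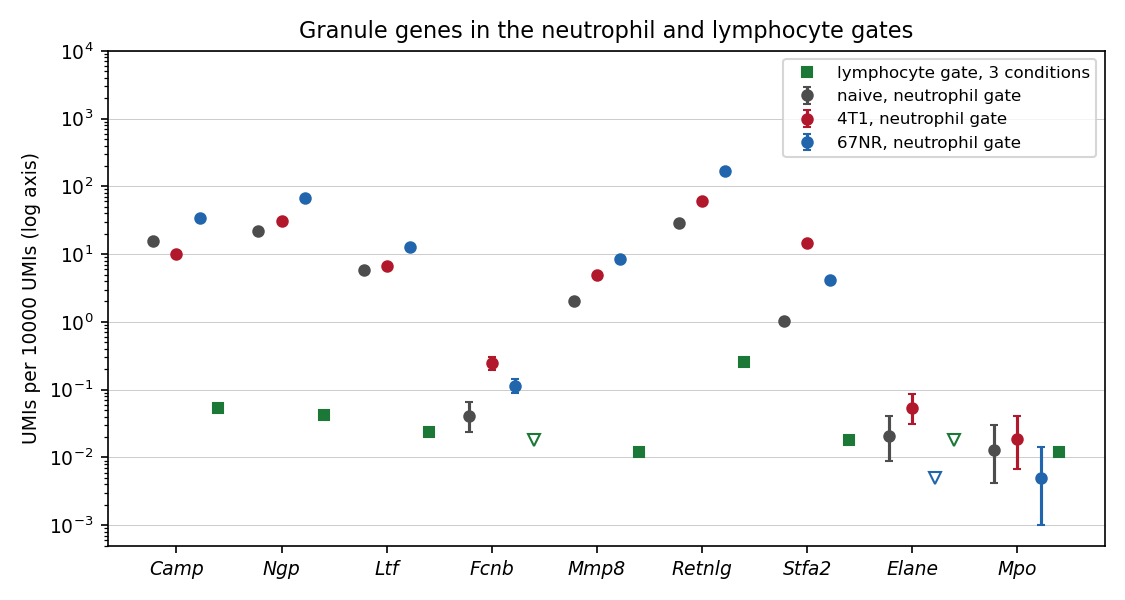
Levels of the 9 genes in the neutrophil gate in UMIs per 10000 on a log axis, by condition, with exact 95% Poisson intervals (often smaller than the point), and in the lymphocyte gate of all 3 conditions without intervals (squares). Open triangles stand at the floor of 3 UMIs where no UMI was counted. Camp runs from 10.0 to 34.4 and Retnlg from 28.7 to 170 across the conditions, while Elane and Mpo stay under 0.1.

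Mmp8 and Retnlg, made late in maturation, were higher in both tumour conditions than in the naive gate. Mmp8, neutrophil collagenase, stood at 2.04 UMIs per 10000 in naive, 4.94 in 4T1 and 8.36 in 67NR gate cells, with log2 ratios over naive of 1.27 (1.15 to 1.40) and 2.03 (1.92 to 2.14). Retnlg, a resistin-like secreted protein made by neutrophils, was the most abundant member, at 28.7, 60.8 and 170 UMIs per 10000. Its ratio over naive was 1.08 (1.05 to 1.11) in 4T1 and 2.56 (2.54 to 2.59) in 67NR. Both genes stood in the order naive, 4T1, 67NR, and the sum of the pair was lower in 4T1 than in 67NR by a log2 ratio of -1.44 (-1.46 to -1.42).

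Stfa2, a stefin that blocks cysteine proteases, had another order. It gave 1.02 UMIs per 10000 in the naive gate, 14.4 in the 4T1 gate and 4.16 in the 67NR gate. The log2 ratio was 3.82 (3.67 to 3.97) for 4T1 over naive, 2.03 (1.87 to 2.18) for 67NR over naive and 1.79 (1.72 to 1.87) for 4T1 over 67NR. Of the 7 members that reached 50 UMIs in the condition with the higher level, Stfa2 and Fcnb were higher in 4T1 than in 67NR and the other 5 were lower.

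The azurophil members Elane and Mpo were close to absent from the gate. Elane gave 8 UMIs, all in 1 cell, in the naive gate, 17 UMIs in 11 cells in the 4T1 gate and none in 808 cells of the 67NR mice, where the floor of 3 UMIs is a level of 0.00491 UMIs per 10000 and the exact interval reaches 0.00604. Mpo gave 5, 6 and 3 UMIs in 4, 2 and 3 cells, and the intervals of its 3 ratios all spanned 0. Over all conditions the Mpo level was 0.0106 (0.0058 to 0.0178) in the neutrophil gate. It was 0.0119 (0.0014 to 0.0431) in lymphocyte gate cells, 0.0149 in cells in none of the gates and 0.0057 (0.0018 to 0.0133) in fibroblast gate cells. Mpo in the neutrophil gate was thus not distinguishable from its level in lymphocyte gate cells. The Elane ratio was 1.36 (0.07 to 2.79) for 4T1 over naive and at most -2.07 for 67NR over naive, and with the gate at 5% the first turned to -1.63. The single naive cell with Elane also held 28 UMIs of Prtn3 (proteinase 3), 51 of Ly6c2 and 46 of Ccr2, and none of Csf3r.

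Of the 9 members, 7 were measured (50 UMIs or more in the condition where the level was higher). Against naive, 4 of the 7 were higher by a log2 ratio of at least 1 in 4T1, where 4.52% of all 6079 measured genes were, and none was lower by as much, against 9.77% of genes. All 7 were higher by at least 1 in 67NR, against 2.38% of 6169 genes, and none was lower, against 16.3%. In 4T1 over 67NR, 2 were higher, against 19.1% of 5903 genes, and 3 were lower, against 4.24%. Median ratios were 1.08, 1.62 and -0.92 for the members, beside -0.02, -0.43 and 0.33 for all measured genes. Both comparisons with naive use the same naive sum. These counts depend on the scale. Relative to S100a8 and S100a9 UMIs, 2 of the 7 members were higher and 1 (Camp) was lower by at least 1 in 4T1 over naive, against 0.773% and 43.6% of the measured genes. In 67NR over naive 1 member (Retnlg) was higher and none lower by as much, against 0.146% and 92.7% of genes. In 4T1 over 67NR 2 were higher and 1 lower, against 45.4% and 1.49%. Member medians on that scale were 0.20, 0.16 and -0.34, beside -0.90, -1.88 and 0.91 for all measured genes.

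**Figure D2:**
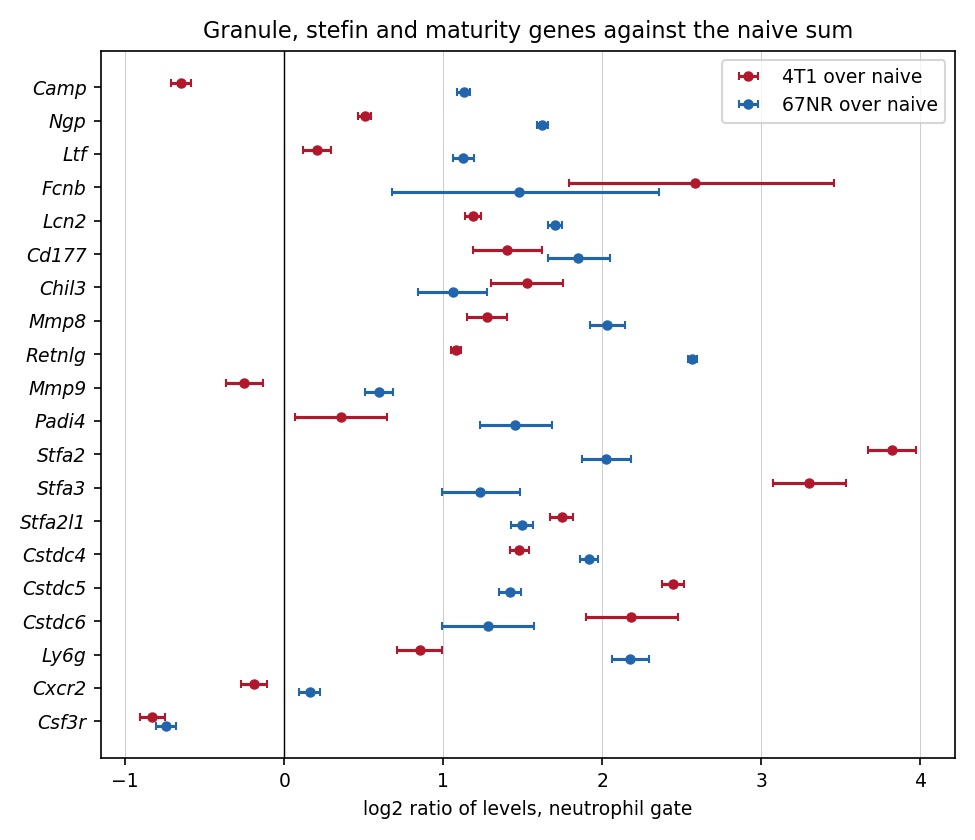
Log2 ratio of the level in the neutrophil gate of the 4T1 mice (red) and of the 67NR mice (blue) over the naive level, with exact 95% counting intervals, for 20 genes of the granule, stefin and maturity lists. Camp is left of 0 in 4T1 at -0.65 (2.25 without its richest 5% of cells) and right of it in 67NR at 1.13 (-0.33 relative to S100a8 and S100a9), and Stfa2 is farthest to the right in 4T1 at 3.82.

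Other genes of the same granules were read from lists that hold the members too. Beside these counts, 4.52% of all measured genes were higher by 1 and 9.77% lower in 4T1 over naive. In 67NR over naive the shares were 2.38% and 16.3%. Of 12 specific granule genes measured, 4 were higher by a log2 ratio of at least 1 in 4T1 over naive and 7 in 67NR over naive, with none lower by 1 in either. Beside Fcnb, the largest ratios in 4T1 were those of Chil3, a chitinase-like protein, at 1.52 (1.30 to 1.75), and Cd177, a neutrophil surface protein, at 1.40 (1.19 to 1.62). In 67NR they were Cd177 at 1.85 (1.66 to 2.05) and Lcn2, the siderophore-binding lipocalin, at 1.70 (1.66 to 1.74). The list median was 0.54 in 4T1 and 1.09 in 67NR. Of 8 azurophil genes listed, 3 were measured in 4T1 over naive, and Elane and Mpo were not among them. Of these, 2 were higher by at least 1 and none was lower by as much, with a median of 1.18. In 67NR over naive 2 were measured, none higher or lower by 1, with a median of -0.09.

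Of 9 gelatinase and late granule genes, 3 were higher and 1 lower in 4T1, and 4 were higher in 67NR. Slc11a1, a metal ion transporter of granule membranes, was the 1 that was lower in 4T1, at -1.30 (-1.43 to -1.16), and Anxa1, a calcium-binding protein released on activation, was higher at 1.09 (1.02 to 1.15). In 67NR, Padi4, the enzyme that citrullinates histones, stood at 1.45 (1.23 to 1.68). The medians of the list were 0.05 and 0.60. All 6 measured genes of the stefin A cluster were higher by at least 1 in both tumour conditions, with medians of 2.31 and 1.46. After Stfa2 the largest ratios in 4T1 were those of Stfa3 at 3.30 (3.07 to 3.53) and Cstdc5 at 2.44 (2.37 to 2.51).

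Markers of mature neutrophils were read the same way. None of 12 was higher or lower by 1 in 4T1, and 2 were higher in 67NR, Ly6g at 2.18 (2.06 to 2.29) and Fpr1, a formyl peptide receptor, at 1.21 (1.10 to 1.33). Of 12 genes of activated neutrophils, 2 were lower by at least 1 in 4T1, where 9.77% of all measured genes were, and 4 in 67NR, where 16.3% were. The adhesion molecule Icam1 was lowest in both, at -1.72 (-1.95 to -1.50) and -1.77 (-1.95 to -1.59), followed by Ptgs2, the inducible cyclooxygenase, at -1.67 (-1.79 to -1.55) and -1.22 (-1.31 to -1.14).

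Genes of other cells also differed in the gate. Of 9 classical monocyte genes, 4 were higher by at least 1 in 4T1 over naive, against 4.52% of all measured genes. In 67NR over naive 5 were lower, against 16.3%, and the list medians were 0.93 and -1.12. Of 8 nonclassical monocyte genes, 6 were lower in each, against 9.77% and 16.3% of all measured genes, with medians of -1.72 and -1.40. Of 6 macrophage genes measured, 4 were lower in 4T1 and 6 in 67NR, with medians of -1.52 and -3.31. Of 5 dendritic cell genes measured, 4 and 5 were lower, with medians of -1.61 and -1.90. Csf1r, the receptor that marks monocytes and macrophages, had a UMI in 32.2% of naive, 38.0% of 4T1 and 26.4% of 67NR gate cells. Ly6c2, read below as a monocyte gene, had another order, with a UMI in 18.1%, 27.7% and 45.4%. These shares are not at equal depth. In the cells without a Csf1r UMI, Camp stood at 22.4, 16.4 and 36.1 UMIs per 10000 and Stfa2 at 1.21, 17.3 and 4.17, in the same order of conditions as in the whole gate. Without cells holding a UMI of Csf1r, Cd79a, Cd3e, Col1a2 or Cdh5, the ratio of the specific granule sum was 0.20 for 4T1 over naive and 0.87 for 67NR over naive.

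Few cells held most of the specific granule transcripts. The 5% of gate cells with the most of them carried 99.3% of these UMIs in the naive gate, 93.7% in the 4T1 gate and 82.0% in the 67NR gate. The median cell had none in any condition, and 543 of 680 naive, 189 of 292 4T1 and 471 of 808 67NR cells were at 0. Retnlg was spread wider, with 83.0%, 48.6% and 27.9% of its UMIs in the 5% of cells richest in it. The sums of the specific granule genes given above thus rest mostly on 34 naive, 15 4T1 and 40 67NR cells.

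Cells with at least 1% of their UMIs from Camp, Ngp, Ltf and Fcnb, called granule-rich here, numbered 14 of 680 in the naive gate (2.06%, exact binomial interval 1.13 to 3.43%), 14 of 292 in 4T1 (4.79%, 2.65 to 7.91%) and 72 of 808 in 67NR (8.91%, 7.04 to 11.1%). They held 94.3%, 91.5% and 94.1% of the specific granule UMIs. These intervals describe the counts of cells and do not rank the conditions, which have no replicate. The class is a range of a share and not a cell type, with 9, 12 and 48 cells lying between 0.5% and 2%.

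**Figure D3:**
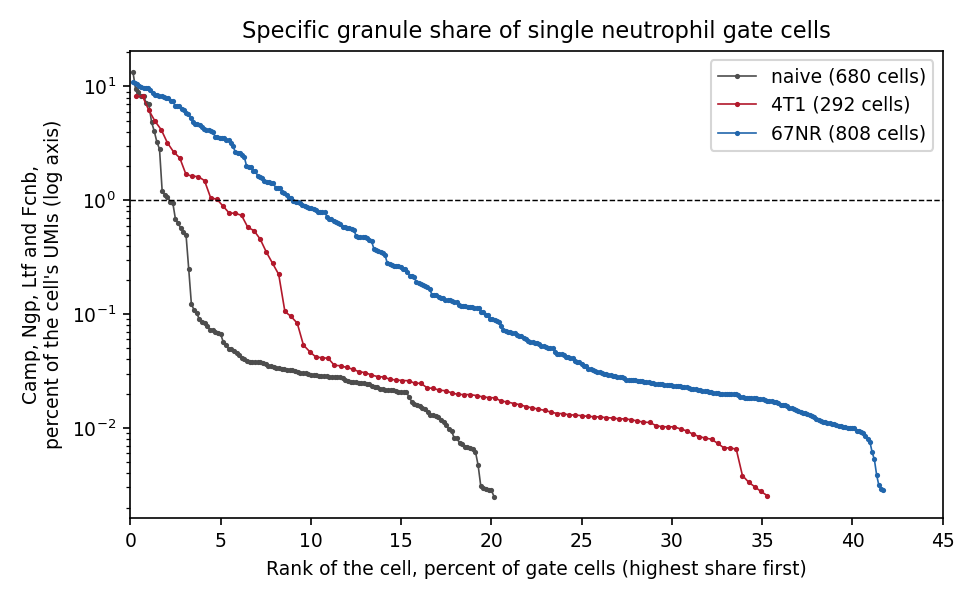
Share of each neutrophil gate cell's UMIs that came from Camp, Ngp, Ltf and Fcnb (log axis, cells at 0 not drawn), against the rank of the cell as a percentage of the gate cells of its condition. The dashed line marks a share of 1%, which 2.06% of naive, 4.79% of 4T1 and 8.91% of 67NR cells reached.

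Granule-rich cells differed from the rest of the gate in genes that the share does not use, given here as a description of cells within each condition. Lcn2 stood at 148, 131 and 143 UMIs per 10000 in granule-rich cells of the naive, 4T1 and 67NR mice, against 3.45, 11.7 and 12.2 in cells with a share under 0.1%. Ly6g had a UMI in every granule-rich cell (14, 14 and 72), against 6.11%, 21.3% and 30.2% of the low cells. The low cells had more Il1b, at 131, 86.0 and 114 UMIs per 10000 against 32.6, 22.1 and 17.2, and more Csf3r, at 11.9, 6.88 and 8.61 against 2.80, 2.58 and 1.58. Granule-rich cells were also deeper, with median UMIs of 17322.5, 26834 and 15155.5 against 3649, 6830 and 5027 in the low cells, and the part of depth in these contrasts was not tested.

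Between the granule-rich and the low cells lay 11 naive, 11 4T1 and 86 67NR cells with a share of 0.1% to 1%. In the 67NR mice these held little Ltf, at 0.465 UMIs per 10000 against 64.3 in the granule-rich cells, while Retnlg was at 357 against 244 and Mmp8 at 14.5 against 14.9. In naive mice the middle cells had less Retnlg than the granule-rich cells, at 137 against 174, and Mmp8 stood at 7.80 against 10.7. In 4T1 mice Retnlg stood at 256 against 108 and Mmp8 at 9.24 against 12.4. Cebpe, the gene of C/EBP epsilon, stood at 0.0635 UMIs per 10000 in the middle cells of the 67NR mice and 0.807 in their granule-rich cells, and Chil3 at 0.0317 and 6.13.

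Mmp8, Retnlg and Stfa2 also differed between the conditions in the low cells alone. Mmp8 stood there at 1.09, 3.42 and 4.91 UMIs per 10000 in naive, 4T1 and 67NR, a log2 ratio over naive of 1.65 (1.47 to 1.83) and 2.17 (2.01 to 2.33). For Retnlg the low cells gave 12.1, 37.2 and 103, with ratios of 1.62 (1.57 to 1.68) and 3.09 (3.05 to 3.14). Stfa2 gave 0.603, 12.4 and 3.54, with ratios of 4.36 (4.16 to 4.57) and 2.55 (2.34 to 2.77). The order of the conditions for these 3 genes did not need the granule-rich cells.

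Shares of cells were compared at equal depth. After thinning to 500 UMIs, Camp had a UMI in 3.09% of naive, 3.77% of 4T1 and 9.41% of 67NR gate cells, against 7.94%, 13.01% and 19.4% before thinning. Ngp had one in 4.56%, 8.56% and 17.9% of cells (13.2%, 22.9% and 37.1% unthinned) and Ltf in 2.35%, 5.82% and 6.93% (6.32%, 13.4% and 13.1% unthinned). For Camp the share was higher in 4T1 than in naive cells while the level was lower, so no order of these conditions can be read for it. Lymphocyte gate cells, whose median depth was 10519 UMIs, had a UMI of Camp in 6.87%, of Ngp in 5.34% and of Ltf in 3.05%. The source of these UMIs, free RNA or doublets within a condition, was not tested. Thinned to 500 UMIs, lymphocyte gate cells had a UMI of Camp in 0.763% (0.0193 to 4.18%) and none of Ngp or Ltf.

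Mmp8 had a UMI in 5.29%, 11.3% and 22.03% of thinned cells and in 27.1%, 57.5% and 63.5% of whole ones. Retnlg was found in 22.6%, 37.7% and 54.6% of thinned cells and 54.4%, 68.5% and 76.4% of whole ones. Stfa2 was found in 2.21%, 23.3% and 7.55% of thinned cells and 6.32%, 42.8% and 20.5% of whole ones. In lymphocyte gate cells the unthinned shares were 1.53% for Mmp8, 28.2% for Retnlg and 2.29% for Stfa2. These 3 genes kept the order of their levels, with 67NR highest for Mmp8 and Retnlg and 4T1 highest for Stfa2.

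**Figure D4:**
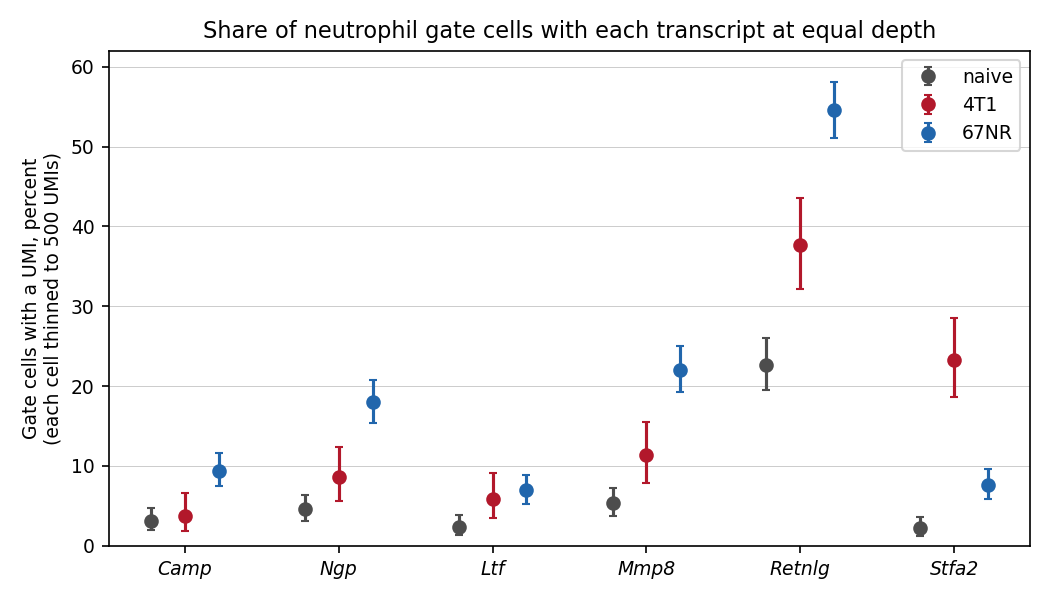
Share of neutrophil gate cells with a UMI of each of 6 genes, in percent, after every cell was thinned to 500 UMIs, with exact 95% binomial intervals. The 67NR cells are highest for all but Stfa2, where 4T1 cells stand at 23.3%, 67NR cells at 7.55% and naive cells at 2.21%.

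The specific granule genes were nested in the same cells. At 10 UMIs or more, Ngp was found in 204 gate cells, Camp in 113 and Ltf in 89. All 113 Camp cells and all 89 Ltf cells were among the 204 Ngp cells, and 86 of the 89 Ltf cells were among the Camp cells. Retnlg at 10 UMIs was found in 605 cells, among them 109 of the Camp cells (96.5%) and 263 of the 273 Mmp8 cells (96.3%). Stfa2 at 10 UMIs was found in 133 cells, of which 22 were Camp cells (16.5% of the Stfa2 cells and 19.5% of the Camp cells). This overlap is partial and not a separation. At 1 UMI or more, Stfa2 was found in 29.3% of the Camp cells, against 18.8% of all gate cells, not at equal depth. Elane and Mpo reached 10 UMIs in no gate cell.

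The genes most like each member over the 1780 gate cells gave the same grouping (Pearson r of log counts per 10000, 6196 genes compared, a description of cells that share a library and differ in depth). Camp was most like Ltf (r = 0.89) and Ngp (0.85), then Adpgk (0.69), Cd177 (0.64) and Serpinb1a (0.64). Mmp8 was most like Retnlg (0.71), Ly6g (0.67) and Wfdc21 (0.63), and Retnlg was most like Ly6g (0.74), Mmp8 (0.71) and S100a8 (0.71). Stfa2 was most like other stefins, Cstdc5 (0.55), Cstdc6 (0.45) and Stfa3 (0.44), and its r with Camp was 0.05. Fcnb, Elane and Mpo were in under 5% of the cells and were not compared.

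The 6 gate cells with at least 10 Fcnb UMIs, singled out after their values were seen, were 1 naive, 1 4T1 and 4 67NR cells with a median depth of 46068.5 UMIs. They held 1063 to 2464 Camp UMIs, 1264 to 3005 Ngp UMIs and 256 to 780 Ltf UMIs each. Mmp8 gave 3 UMIs in 1 of the 6 and none in the others, and Retnlg gave 142 UMIs in all. Mki67, a protein of cycling cells, was present in 5 of the 6, with 131 UMIs, and Top2a, which untangles DNA before division, in 5 with 145 UMIs. Cebpe was present in all 6. Elane was at 0 in each of them.

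In the whole gate, proliferation genes were read as a list. Of 8 measured, 4 were higher by at least 1 in 4T1 over naive, against 4.52% of all measured genes, and 3 in 67NR over naive, against 2.38%. The largest ratios in 4T1 were those of Ube2c at 3.07 (2.22 to 4.03) and Top2a at 2.58 (1.82 to 3.43). The gate held 17 Top2a UMIs in naive, 84 in 4T1 and 105 in 67NR cells, and 145 of them were in those 6 cells. By condition these were 2 in 1 naive cell, 56 in 1 4T1 cell and 87 in 4 67NR cells. The Top2a ratio of 4T1 over naive thus rests largely on 1 cell. Granule-rich cells with a Mki67 UMI numbered 1 of 14 naive, 3 of 14 4T1 and 10 of 72 67NR cells.

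In monocytes the question is whether granule transcripts exceed the free RNA that droplets take up. Cells under the 1% limit were put in the monocyte gate when they held Lyz2, at least 3 UMIs over at least 2 of Ly6c2, Ccr2, F13a1, Csf1r and Fcgr1, and none of 6 genes of other lineages. The monocyte gate held 179 naive, 411 4T1 and 172 67NR cells, with median depths of 14407, 21294 and 18101 UMIs. As a measure of free RNA, cells with lymphocyte genes (131) and with fibroblast genes (545) were read, since neither type is known to make these proteins. S100a8 and S100a9 stood in them at 0.206% and 0.189% of their neutrophil gate level.

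In lymphocytes the counts of most members were near what that share of neutrophil RNA would give. Camp had 9 UMIs against 7.93 predicted, Ltf 4 against 3.19, Mmp8 2 against 1.96, Stfa2 3 against 1.98 and Retnlg 43 against 35.2, while Ngp had 7 against 15.4. In fibroblasts Camp had 32 against 38.2, Mmp8 9 against 9.43 and Stfa2 10 against 9.54, while Ngp had 41 against 74.0 and Retnlg 206 against 170. Fcnb and Elane gave no UMI in either type. Mpo gave 2 in lymphocytes and 5 in fibroblasts, against 0.0037 and 0.018 predicted, so its counts were above what that share would give. The source of these Mpo UMIs was not tested. A Retnlg UMI was thus found in 28.2% of lymphocytes and 30.3% of fibroblasts.

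Camp, Ngp, Ltf, Retnlg and Stfa2 in the pooled monocyte gate were not distinguishable from that background. Over all conditions the log2 ratio of the monocyte over the fibroblast level was -0.22 (-0.90 to 0.48) for Camp, 0.24 (-0.32 to 0.82) for Ngp, 0.72 (-0.27 to 1.81) for Ltf, 0.12 (-0.13 to 0.37) for Retnlg and 0.64 (-0.46 to 1.85) for Stfa2. Retnlg had a UMI in 36.9% of monocytes at a median depth of 19192.5 UMIs, against 30.3% of fibroblasts at 16031. By condition, Ltf in naive monocytes stood at 0.0465 UMIs per 10000 (0.0247 to 0.0795; 13 UMIs), against 0.0136 (0.00704 to 0.0238) in all fibroblasts. It was lower in 4T1 than in naive monocytes by a log2 ratio of -1.54 (-2.73 to -0.33). This order was not particular to monocytes. Cells in none of the gates held Ltf at 0.0337 (0.0255 to 0.0436) in naive, 0.0109 in 4T1 and 0.0168 in 67NR. Naive fibroblasts held it at 0.00855 (0.00104 to 0.0309; 2 UMIs). The specific granule sum of the monocyte gate had a log2 ratio of -0.00479 (-0.50 to 0.52) for 4T1 over naive and -0.32 (-0.97 to 0.33) for 67NR over naive.

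Elane, Fcnb and Mmp8 stood above it, and Mpo did so through 1 cell. The log2 ratio over fibroblasts was 5.01 (4.07 to 6.15) for Mmp8, at least 4.12 for Elane, at least 3.61 for Fcnb and 1.80 (0.41 to 3.52) for Mpo, with the bounds set at a floor of 3 UMIs in the fibroblast gate. A single 4T1 cell held 14 of the 29 Mpo UMIs, and without it the Mpo ratio was 0.85 (-0.69 to 2.66). Mmp8 gave 37 UMIs in 18 naive cells, 376 in 112 4T1 cells and 72 in 30 67NR cells. Its level was 0.132, 0.430 and 0.227 UMIs per 10000, which is higher in 4T1 than in naive by a log2 ratio of 1.70 (1.21 to 2.23) and than in 67NR by 0.92 (0.55 to 1.31).

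Elane, read as an early granule gene, was found in monocyte gate cells of the tumour mice. It gave no UMI in 179 naive cells, 74 in 18 of 411 4T1 cells and 13 in 6 of 172 67NR cells, at a log2 ratio of at least 2.98 for 4T1 over naive and at least 1.94 for 67NR over naive. Fcnb gave 2, 50 and 9 UMIs in 2, 29 and 7 cells, a log2 ratio of 3.00 (1.07 to 6.09) for 4T1 over naive. Mpo gave 3, 20 and 6 UMIs, and the interval of its ratio spanned 0 in each comparison. Of the 4 members measured in 4T1 over naive, 3 were higher by at least 1, against 2.62% of 7454 genes, and none was lower, against 4.28%. In 67NR over naive none of 2 measured was higher, against 0.805%, or lower, against 3.66%. In 4T1 over 67NR 2 of 5 were higher, against 1.85%, and none was lower, against 0.873%.

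The 18 monocyte gate cells of the 4T1 mice with Elane were read for other genes. All 18 held Ly6c2, Csf1r and Ccr2, which mark classical monocytes but are among the genes the gate was built on, so their presence is no finding. Prtn3, which the gate did not use, was in 16, with 170 UMIs. Mki67 was present in 10 of them, Fcnb in 10 and Mmp8 in 13, while Camp was present in 1 and Ltf in none. Csf3r, used above as a marker of the neutrophil gate, was present in 13 of the 18. In the 6 such cells of the 67NR mice, Ly6c2, Csf1r and Ccr2 were again present in all, Prtn3 in 3 and Mki67 in 4.

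Inside the neutrophil gate, Elane was also found beside monocyte genes. The 11 cells of the 4T1 mice with an Elane UMI had a median S100a8 and S100a9 share of 1.60%, near the edge of the gate, and all 11 held Ly6c2, Ccr2 and Prtn3. Csf3r was found in 7 of the 11, Camp in 2 and Fcnb in 8. Just inside the edge (1% to 2% of S100a8 and S100a9), Elane was in 7 of 38 4T1 cells, in none of 133 naive and in none of 49 67NR cells. Just outside it (0.5% to 1%), Elane was in 3 of 44 4T1, none of 85 naive and 1 of 50 67NR cells, and Camp in 1, 2 and 3 cells.

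**Figure D5:**
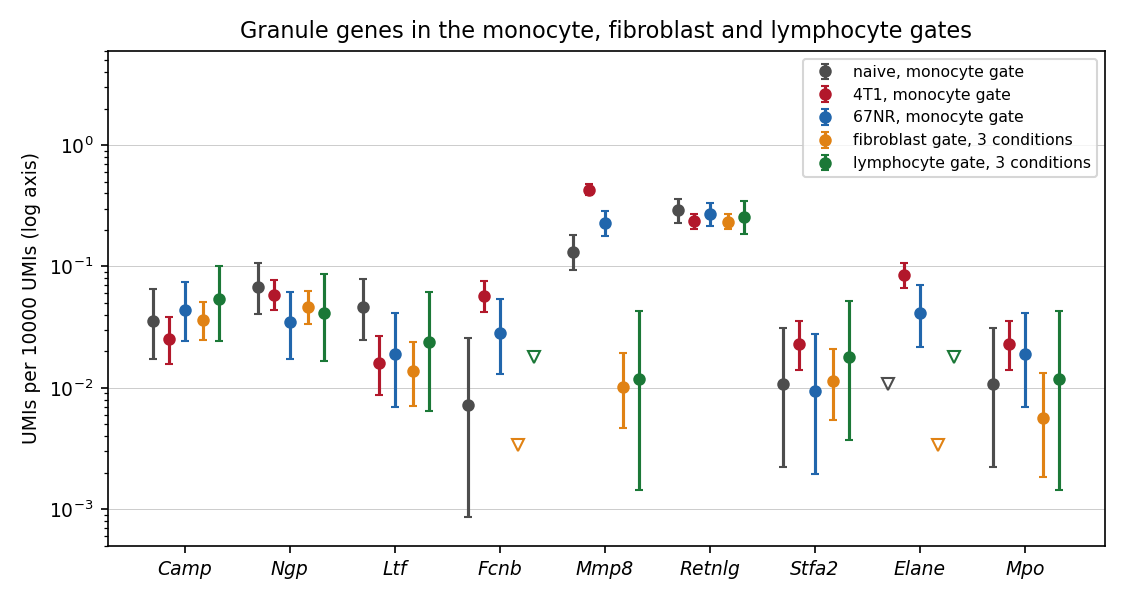
Levels of the 9 genes in the monocyte gate by condition and in the fibroblast and lymphocyte gates of all 3 conditions, in UMIs per 10000 on a log axis with exact 95% Poisson intervals. Open triangles stand at the floor of 3 UMIs where no UMI was counted. Monocytes overlap the fibroblast and lymphocyte levels for Camp, Ngp and Retnlg and lie above them for Mmp8, with 0.430 in 4T1.

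Prtn3, which is packed with Elane in azurophil granules, gave 8 UMIs in the naive, 327 in the 4T1 and 37 in the 67NR monocyte gate, a log2 ratio of 3.71 (2.71 to 4.93) for 4T1 over naive. Proliferation genes were higher by at least 1 in 7 of 10 measured in 4T1 and in 6 of 9 in 67NR, with medians of 1.53 and 1.85. Of all genes measured in the monocyte gate, 2.62% and 0.805% were higher by as much. Ube2c, of the ubiquitin pathway of mitosis, had the largest ratio in both, at 3.94 (2.88 to 5.27) and 4.20 (3.12 to 5.54).

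The Hcar2 receptor, had a UMI in 358 of 680 naive, 153 of 292 4T1 and 406 of 808 67NR gate cells. Camp stood at 19.4 UMIs per 10000 in naive cells with Hcar2 and 11.1 in those without, at 13.5 and 6.70 in 4T1 cells, and at 26.5 and 43.3 in 67NR cells. Retnlg stood at 26.8 and 31.2, 66.5 and 55.2, and 162 and 180. Within cells with Hcar2 and within cells without it, 67NR was the highest condition for both genes.

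The axillary atlas of untreated mice, a separate library in which surface antibodies were also counted, held 26 cells in the same gate. All 26 had at least 100 counts of the Ly6G antibody, with a median of 613 (214 to 1247) against 2 in the 11477 other cells. Another 6 cells outside the gate also had at least 100 counts, and 2 of them held S100a8. Of the 26 gate cells, 8 were granule-rich and had a median of 465 Ly6G counts, against 830.5 in the other 18. Camp gave 3060 UMIs in 9 of the 26 cells, Ngp 3915 in 12, Ltf 963 in 9, Mmp8 182 in 17 and Retnlg 1134 in 20. Stfa2 gave 11 UMIs in 4 cells, and Elane, Mpo and Fcnb none.

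In the other libraries the gate was nearly empty or did not hold neutrophils. The stromal library had 5 gate cells and the T cell library 3. In the mediastinal atlas 15 cells passed, but Csf3r and Cxcr2 were at 0 in all of them and their median of Ly6G antibody counts was 4 against 3 elsewhere, so they were not used.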

How the data were processed

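UMI counts per gene and cell were deposited by the authors as gene by barcode matrices. Per the submitters' processing notes they were made with Cell Ranger 7.0 on mm10. For the annotation, the calling of cells and the use of intronic reads, nothing is stated in the labels. Hashtag antibody counts in the same deposited files gave each cell its condition. Cells were kept at 500 UMIs or more, 250 genes or more and at most 10% mitochondrial UMIs. A hashtag was called at a count of 10 or more and at least 3 times the next, and 1111 droplets (17.0%) under that ratio were removed as doublets, while doublets within a condition remain. Hashtags were not equally clear, with a median ratio of 35.7, 9.66 and 14.5 in naive, 4T1 and 67NR neutrophil gate cells. Of the 680, 292 and 808 cells kept, 77, 113 and 183 had a ratio under 10.

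Counts were summed per gate and condition. Levels are UMIs per 10000 with exact Poisson intervals, log2 ratios have exact conditional binomial intervals, and shares have exact Clopper-Pearson intervals, all at 95%. Where a group had no UMI, 3 UMIs over the group were used in its place, so the ratio is a bound. A gene was measured at 50 UMIs or more in the condition with the higher level and counted as higher or lower at an absolute log2 ratio of at least 1. Intervals of log2 ratios were tested on simulated sums drawn with the same counting error that the intervals assume. That test cannot show how they cover UMIs that are held by few cells. All 9 members are named. Genes named from a list were taken from those with the largest absolute ratio, and some lists are given without named genes. Genes with the highest r were found for each member in at least 5% of gate cells. Of the 5 per member, all are given for Camp and 3 each for Mmp8, Retnlg and Stfa2. None are given for Ngp and Ltf. The members and lists were chosen with earlier results of these data known. Python 3.11.15, numpy 2.4.6, scipy 1.17.1, pandas 2.3.3 and matplotlib 3.10.9 were used.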

Additional observations from a re-analysis of the deposited data

Results flagged for a closer look

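Camp in the neutrophil gate had opposite signs in the 2 tumour conditions, with a log2 ratio over naive of -0.65 in 4T1 and 1.13 in 67NR. Elane also had opposite signs, with 1.36 in 4T1 and at most -2.07 in 67NR, where no UMI was counted. Both pairs share the naive sum, the naive Elane UMIs were 8 in 1 cell, and the difference between the conditions was not tested.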

How the results depend on the processing

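Values are log2 ratios of the neutrophil gate, for the specific granule sum in 4T1 over naive (0.14), 67NR over naive (1.40) and 4T1 over 67NR (-1.25), then for the late granule sum in the same order (1.09, 2.53 and -1.44). With the gate at 0.5% they were 0.22, 1.60, -1.38, 1.16, 2.72 and -1.56. With the gate at 5% they were -0.33, 0.53, -0.87, 0.71, 1.77 and -1.06. With a hashtag ratio of 10 they were 0.64, 1.66, -1.02, 1.42, 2.95 and -1.53, and with doublets kept 0.33, 1.19, -0.87, 0.68, 2.09 and -1.41. Thinned to 500 UMIs they were 0.51, 1.85, -1.34, 1.29, 2.82 and -1.53. Without the 5% of cells richest in each sum they were 3.34, 6.09, -2.74, 2.54, 4.41 and -1.87. Relative to S100a8 and S100a9 they were -0.74, -0.061, -0.67, 0.22, 1.08 and -0.86. Without cells holding genes of other types they were 0.20, 0.87, -0.67, 0.91, 2.25 and -1.35. At most 5% mitochondrial UMIs gave late sums of 1.06 in 4T1 over naive and -1.47 in 4T1 over 67NR. With the lymphocyte level subtracted, the monocyte specific granule sum in 67NR over naive was -2.45 in place of -0.32. That value rests on few UMIs, since the 67NR and naive sums held 40 and 44 UMIs before subtraction. The level subtracted came from 9 Camp, 7 Ngp and 4 Ltf UMIs, so no change is read from it. The share of granule-rich cells in 67NR was 11.2% with the gate at 5%, 12.4% with the granule share at 0.5% and 6.44% at 2%, and in naive 4.18% with the gate at 5%. Single members that turned were Camp in 4T1 over naive without its richest 5% of cells (2.25), Camp in 67NR over naive relative to S100a8 and S100a9 (-0.33), Ltf relative to them in 4T1 (-0.67) and 67NR (-0.33), Ngp relative to them in 4T1 (-0.37), and Ltf (-0.26) and Elane (-1.63) in 4T1 over naive with the gate at 5%. Mpo in 4T1 over naive, whose interval spans 0, was -0.34 relative to S100a8 and S100a9 in place of 0.54. On that scale the members higher by at least 1 numbered 2 in place of 4 in 4T1 over naive and 1 in place of 7 in 67NR over naive, and those lower in 4T1 over 67NR 1 in place of 3. The alternatives for shares, single members and counts of members were chosen after seeing the data, and the cause of these moves was not tested. No paired analysis was possible because each condition is 1 hashtag in 1 library, and for the same reason no replicate could be left out.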
